A study of Homo sapiens with 12 samples.

Results

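The 8 genes described are NEUROG3 and 7 transcription factors that accompany it in endocrine progenitors: INSM1, RFX6, RFX3, MYT1, ST18, SOX4 and HES6. They were found by gene symbol among the 60624 genes of the deposited count and TPM tables, and each symbol stood on a single row. Transcript levels had been measured by RNA-seq of total RNA from islet-like cells made from expandable pancreatic progenitors of MEL1, a human embryonic stem cell line. The 12 libraries form 4 groups of 3: NKX2-2 knockout (KO, labelled N2-KO) with its own wild type (WT), and CLEC16A KO (labelled C16-KO) with its own WT. NKX2-2 is a homeodomain transcription factor of islet cells, and CLEC16A is a regulator of mitophagy. All groups were day 8 cells in the medium named R6, which holds Compound E, a gamma-secretase inhibitor that blocks Notch cleavage, the BMP receptor inhibitor LDN-193189, a TGF-beta receptor inhibitor, the thyroid hormone T3, forskolin, vitamin C, zinc sulfate, heparin, BSA and B27. The titles name no edited clone, and the labels are silent on whether replicates are separate cultures. A difference between cell lines therefore cannot be told apart from an effect of the edit, and p-values measure a spread between libraries that may be technical.

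NEUROG3 is a basic helix-loop-helix (bHLH) transcription factor that is switched on for a short time in progenitors and is needed for the islet endocrine lineage. Notch signalling holds it down through the repressor HES1, and cells that escape Notch raise NEUROG3, leave the cell cycle and turn on further factors. INSM1, a zinc finger repressor, and NEUROD1, another bHLH factor, are among its direct targets. RFX6 and RFX3 are winged-helix factors of islet development, and RFX3 also drives genes of the cilium. MYT1 and ST18 are zinc finger proteins of one family, SOX4 is an HMG box factor that is required for islet formation in mouse, and HES6 is a bHLH protein that counters HES1.

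The bHLH proteins bind the E-box, spelled CANNTG, so the 250 bases before the RefSeq gene start (GRCh38.p14) were searched for it on both strands, and NEUROG3 is shown because its transcript differed most between the groups. Its upstream stretch, chr10:69573423-69573672 on the minus strand, holds a single E-box, which is given in capitals.
NEUROG3: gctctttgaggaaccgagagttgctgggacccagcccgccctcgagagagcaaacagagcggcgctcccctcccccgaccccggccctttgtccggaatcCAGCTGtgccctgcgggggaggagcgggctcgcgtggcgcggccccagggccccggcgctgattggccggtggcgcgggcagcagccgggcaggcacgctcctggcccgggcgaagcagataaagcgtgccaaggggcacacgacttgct
The same 6 letters, CAGCTG, are the only E-box spelling in the windows of HES6 (1 match) and SOX4 (2 matches), shown with 10 bases on each side and with the E-box in capitals.
HES6, chr2:238240181-238240206, minus strand: ctagctcagcCAGCTGcccgaccgcc
SOX4, chr6:21593520-21593545, plus strand: gcagaaatctCAGCTGtacttctagc
SOX4, chr6:21593678-21593703, plus strand: ttggttacagCAGCTGattggctgca
CAGCTG was present in 14.0% of 35116 RefSeq windows of this length, and CANNTG of any spelling in 61.8%. In GENCODE 29 the genes HES6 and SOX4 start further upstream than in RefSeq, so these 3 sites lie before the RefSeq start but inside the GENCODE spans given below. NEUROG3 instead starts further downstream in GENCODE 29, at 69573238 on the minus strand, so its window does not adjoin that start. The windows of RFX3 and MYT1 held no E-box. The core that NK2 family homeodomain proteins bind, AAGTG, lay in none of the windows of these 5 genes and in 37.6% of all windows. These letters are descriptions of sequence, and no binding was measured.

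The NKX2-2 libraries held 16157481 to 20649976 counts each and the CLEC16A libraries 31364272 to 33763795, and no pair of replicates was so alike as to be within sampling noise. The experiments were deposited as separate tables, so each KO was compared with its own WT, and levels are not compared across them. NKX2-2 transcripts averaged 76.1 ± 13.7 CPM (counts scaled to library size) in NKX2-2 KO cells and 95.2 ± 1.64 CPM in their WT (SD, n = 3 each), with an adjusted p of 0.061 (log2 fold change -0.32, SE 0.12). The groups did not overlap in CPM, as for 45.5% of all genes tested in that experiment. Nor did they in TPM, with 44.6, 30.6 and 28.6 TPM in KO cells, against 60.8, 56.9 and 54.5 TPM in WT cells. CLEC16A transcripts averaged 36.7 ± 1.34 CPM in CLEC16A KO cells and 32.3 ± 3.35 CPM in their WT (log2 fold change 0.18, SE 0.09, adjusted p = 0.0949). The transcript of neither edited gene therefore checks the labels, and KO below means the libraries labelled so. NKX2-2 was lower in CLEC16A KO cells, with 65.7, 65.8 and 58.9 CPM, against 113, 131 and 119 CPM in their WT. Its log2 fold change there was -0.93 (SE 0.07, adjusted p = 3.53e-10), and the cause was not tested. CLEC16A was not called in NKX2-2 KO cells (log2 fold change 0.049, SE 0.14, adjusted p = 0.817).

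NEUROG3 was higher in NKX2-2 KO cells and lower in CLEC16A KO cells, each against its own WT. In NKX2-2 KO cells NEUROG3 rose, INSM1 and ST18 fell, and the other 5 members did not pass the test in counts. In CLEC16A KO cells all 8 members fell. A call is an adjusted p under 0.05 in edgeR's quasi-likelihood test over all genes. Of all genes tested, 33.4% were called between NKX2-2 KO and WT cells, 16.6% as higher and 16.8% as lower, so 3 of 8 members is near the background. Between CLEC16A KO and WT cells 45.0% of genes were called, 23.7% as higher and 21.3% as lower, against 8 of 8 members lower. KO and WT values did not overlap for 4 of 8 members in the NKX2-2 experiment (45.5% of all genes tested) and for 8 of 8 in the CLEC16A experiment (53.8%). The members' median log2 fold change was 0.08 in NKX2-2 KO cells, where the median of all genes tested was 0.03, and -0.72 in CLEC16A KO cells, where it was -0.01. In bulk RNA, fewer cells of a type and less RNA per cell cannot be told apart.

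**Figure D1:**
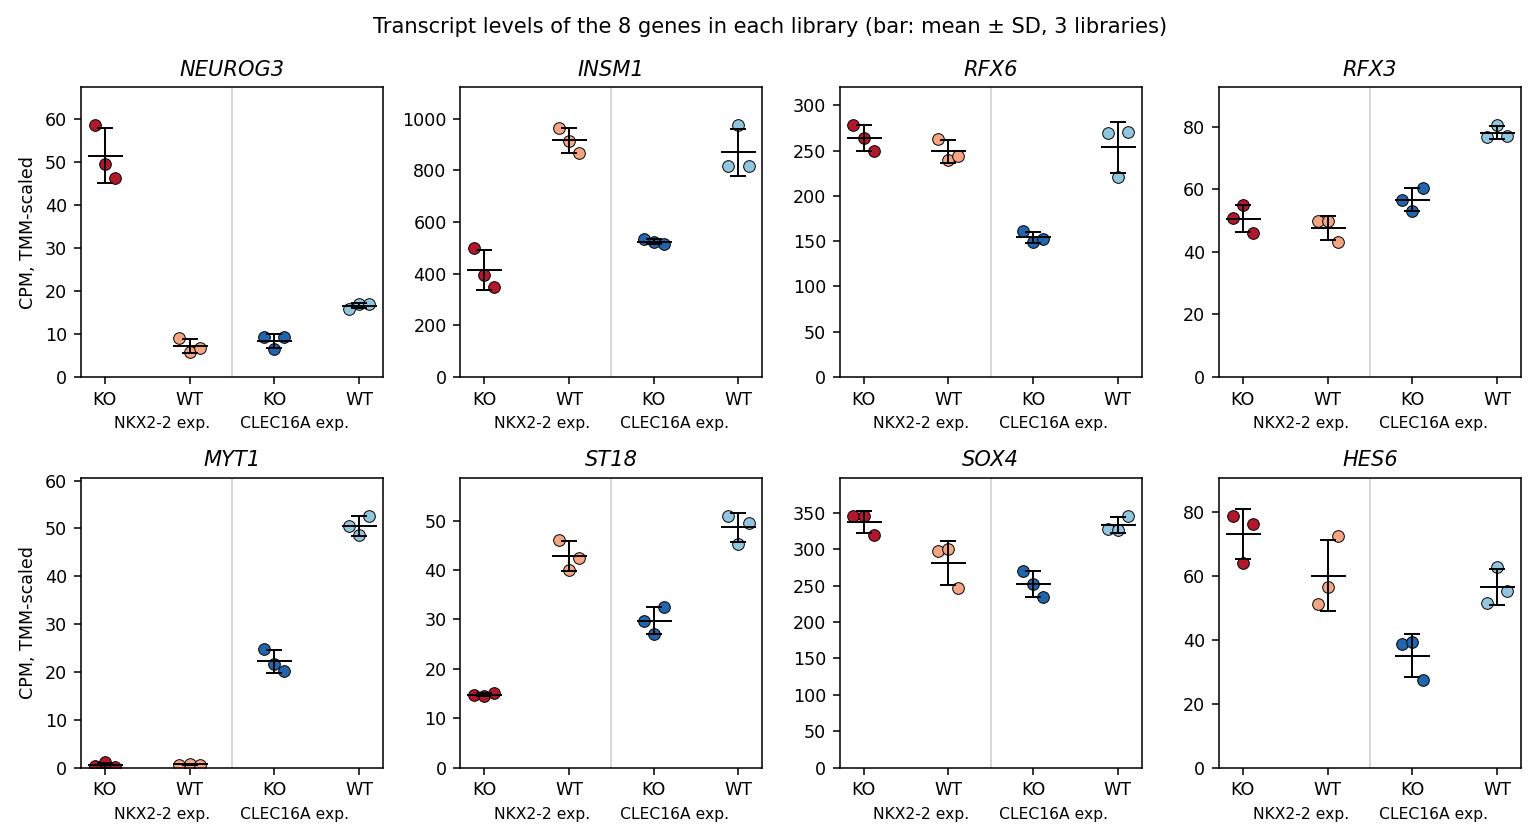
Transcript levels of the 8 genes in CPM, TMM-scaled, in each of 12 libraries, with KO left of WT in each experiment; points are libraries, and bars give the mean ± SD of 3. NEUROG3 stands at 46.2 to 58.5 CPM in NKX2-2 KO cells against 5.71 to 9.08 CPM in their WT, while in the CLEC16A experiment all KO points of every gene lie below the WT points.

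NEUROG3 (ENSG00000122859.5, chr10:69571698-69573238, minus strand) had 972, 991 and 800 counts in the NKX2-2 KO libraries, against 189, 113 and 120 in the WT libraries. Scaled, these were 58.5, 49.6 and 46.2 CPM in KO cells and 9.08, 5.71 and 6.77 CPM in WT cells. The lowest KO library lay far above the highest WT library. The level was 7.13-fold higher in KO cells (95% interval 5.53 to 9.18; log2 fold change 2.83, SE 0.17, adjusted p = 8.16e-08). In the CLEC16A experiment NEUROG3 had 289, 207 and 287 counts in KO libraries, against 551, 559 and 560 in WT libraries. The WT libraries were close to each other at 15.8, 16.9 and 17.0 CPM, and the KO libraries lay below them at 9.34, 6.43 and 9.21 CPM, with replicate 2 the lowest. NEUROG3 fell there (adjusted p = 3.65e-06, log2 fold change -0.99, SE 0.14). Both effects differed from each other by 3.83 on the log2 scale (SE 0.22, adjusted p = 5.35e-12), in an interaction test for which 38.2% of 20494 genes were called.

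INSM1 (ENSG00000173404.5, chr20:20368121-20370949, plus strand), a repressor that NEUROG3 turns on, fell in both knockouts. It had 501, 394 and 348 CPM in NKX2-2 KO cells, against 965, 915 and 868 CPM in WT cells. All KO libraries were below all WT libraries (adjusted p = 2.60e-05, log2 fold change -1.14, SE 0.13). In the CLEC16A experiment INSM1 had 536, 523 and 514 CPM in KO cells, against 819, 976 and 816 CPM in WT cells. These groups also stood apart (log2 fold change -0.73, SE 0.07, adjusted p = 1.04e-08). The effects differed by -0.40 (SE 0.16, adjusted p = 0.0456), a call that 18 of 24 alternative settings did not make, with adjusted p up to 0.426. NEUROG3 and INSM1 thus moved in opposite directions in NKX2-2 KO cells and in the same direction in CLEC16A KO cells.

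NEUROD1, which lies downstream of NEUROG3 and is no member of the set, had 314, 296 and 258 CPM in NKX2-2 KO cells, against 317, 310 and 300 CPM in WT cells. The log2 fold change was -0.10, with a 95% interval of -0.32 to 0.13. The gene fell in CLEC16A KO cells, with 222, 227 and 231 CPM, against 337, 315 and 326 CPM in WT cells (log2 fold change -0.52, SE 0.06, adjusted p = 2.12e-07).

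A ratio of counts within a library needs no scaling between libraries. Per 100 INSM1 counts, NKX2-2 KO libraries held 11.7, 12.6 and 13.2 NEUROG3 counts, against 0.941, 0.624 and 0.78 in WT libraries. This ratio was 16.2-fold higher in KO cells, with no overlap (two-sided exact permutation p = 0.1, the smallest that 3 against 3 allows). Per 100 NEUROD1 counts, the values were 18.6, 16.8 and 17.9 in NKX2-2 KO libraries and 2.87, 1.84 and 2.26 in WT libraries, 7.77-fold higher in KO cells (exact p = 0.1). In the CLEC16A experiment NEUROG3 per 100 INSM1 counts was 1.74, 1.23 and 1.79 in KO libraries, against 1.93, 1.73 and 2.08 in WT libraries. Here the groups overlapped (log2 ratio of KO over WT -0.28, exact permutation p = 0.3). Per 100 NEUROD1 counts it was 4.21, 2.84 and 3.98 in CLEC16A KO libraries, against 4.68, 5.36 and 5.22 in WT libraries. All KO values were lower (log2 ratio of KO over WT -0.49, exact permutation p = 0.1).

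**Figure D2:**
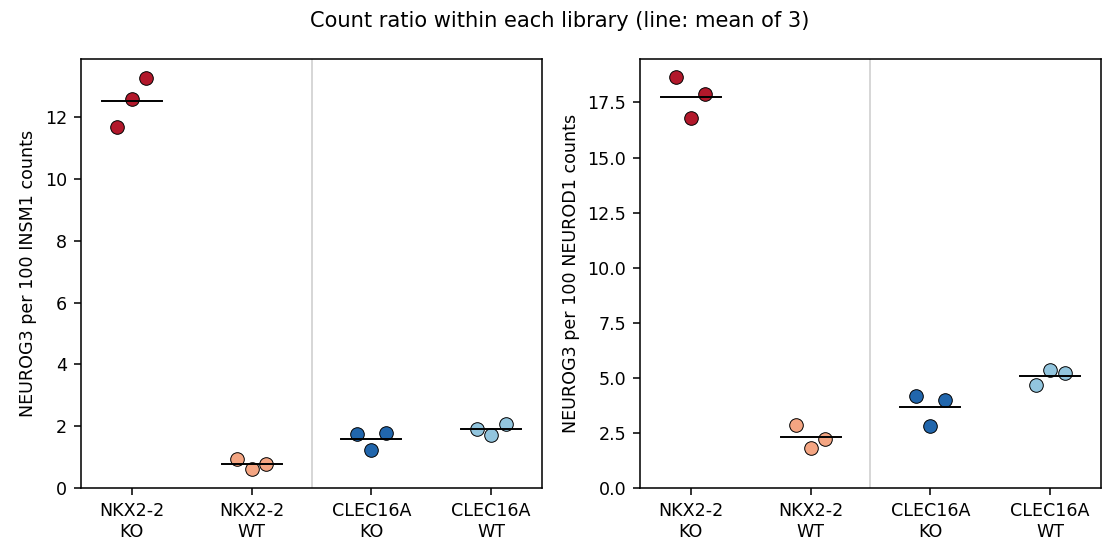
NEUROG3 counts per 100 counts of INSM1 (left) and of NEUROD1 (right) in each library, KO left of WT in each experiment; points are libraries and lines the mean of 3. NKX2-2 KO libraries hold 11.7 to 13.2 NEUROG3 counts per 100 INSM1 counts, and their WT libraries hold 0.624 to 0.941.

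MYT1 and ST18 belong to one family of zinc finger factors of neural and endocrine cells. ST18 (ENSG00000147488.11, chr8:52110839-52460959, minus strand) had 14.7, 14.5 and 15.1 CPM in NKX2-2 KO cells, against 46.0, 40.0 and 42.6 CPM in WT cells. The KO libraries were nearly equal, and the level was 2.91-fold lower than in WT (log2 fold change -1.54, SE 0.11, adjusted p = 4.89e-07). CLEC16A KO cells had 29.6, 27.0 and 32.5 CPM, against 51.0, 45.3 and 49.6 CPM in WT cells, and ST18 fell (log2 fold change -0.71, SE 0.09, adjusted p = 4.15e-07). In the TPM values of that experiment the groups overlapped, with 27.1, 16.1 and 22.0 TPM in KO cells, against 31.9, 26.4 and 30.0 TPM in WT cells. There limma on log2(TPM + 1) gave a log2 fold change of -0.45 and an adjusted p of 0.0715, so this call rests on the counts; that test called 38.9% of all genes there and 36.0% for the difference of effects. The effects of the knockouts on ST18 differed by -0.82 (SE 0.14, adjusted p = 6.56e-05).

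MYT1 (ENSG00000196132.14, chr20:64102394-64242253, plus strand) had few counts in the NKX2-2 tables, with 6, 21 and 1 in KO libraries, against 11, 16 and 11 in WT libraries. In the same tables its TPM values were 0.989, 0.844 and 0.542 in KO cells, against 2.38, 2.65 and 2.07 in WT cells. MYT1 had 17.4 times fewer CPM per rescaled TPM there than in the CLEC16A tables, and the cause was not tested. The count test gave a log2 fold change of -0.36 with a 95% interval of -1.71 to 1.00, which is too wide to place it. The TPM groups did not overlap, and limma on log2(TPM + 1) called MYT1 lower (log2 fold change -0.91, SE 0.13, adjusted p = 0.000645; 28.8% of genes were called by that test). MYT1 counts fell in CLEC16A KO cells, with 24.8, 21.6 and 20.1 CPM, against 50.5, 48.5 and 52.7 CPM in WT cells. It was the most reduced of the 8 genes there (log2 fold change -1.19, SE 0.09, adjusted p = 1.84e-10).

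RFX6 (ENSG00000185002.10, chr6:116877212-116932163, plus strand), a factor whose loss in people leaves the pancreas without most islet cells, had 278, 264 and 249 CPM in NKX2-2 KO cells, against 263, 239.6 and 244 CPM in WT cells. The groups overlapped, and the interval of the log2 fold change ran from -0.13 to 0.30 around 0.08 (adjusted p = 0.543). RFX6 in CLEC16A KO cells had 161, 149 and 152 CPM, against 269, 221 and 271 CPM in WT cells. That fall stood clear of the replicate spread (log2 fold change -0.72, SE 0.07, adjusted p = 3.58e-08), and the effects differed by 0.81 (SE 0.13, adjusted p = 2.13e-05). RFX3 (ENSG00000080298.15, chr9:3218297-3526004, minus strand) had 50.7, 55.0 and 46.2 CPM in NKX2-2 KO cells, against 50.0, 49.9 and 43.2 CPM in WT cells. These groups overlapped as well (log2 fold change 0.08, interval -0.16 to 0.33). The CLEC16A KO cells had 56.6, 53.1 and 60.4 CPM, against 76.7, 80.5 and 77.0 CPM in WT cells. RFX3 fell there (log2 fold change -0.46, SE 0.07, adjusted p = 1.10e-05), and its effects differed by 0.56 (SE 0.13, adjusted p = 0.0017).

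SOX4 (ENSG00000124766.7, chr6:21592768-21598619, plus strand) had 346, 346 and 320.2 CPM in NKX2-2 KO cells, against 297, 301 and 247 CPM in WT cells. The KO libraries were all above the WT libraries, but the log2 fold change of 0.26 (SE 0.11) had an adjusted p of 0.0824, and its 95% interval ran from 0.03 to 0.50. SOX4 in CLEC16A KO cells had 270.0, 253 and 235 CPM, against 328, 326 and 345 CPM in WT cells (log2 fold change -0.40, SE 0.06, adjusted p = 2.19e-05). HES6 (ENSG00000144485.11, chr2:238238267-238240662, minus strand) had 78.9, 64.1 and 76.2 CPM in NKX2-2 KO cells, against 51.3, 56.5 and 72.5 CPM in WT cells. WT replicate 3 lay among the KO libraries (log2 fold change 0.28, interval -0.02 to 0.58, adjusted p = 0.136). The value moved with single WT libraries: without WT replicate 3 the log2 fold change was 0.44 and HES6 was called higher (adjusted p = 0.0191), while without WT replicate 1 it was 0.16 (adjusted p = 0.495) and without WT replicate 2 it was 0.22 (adjusted p = 0.376). HES6 in CLEC16A KO cells had 38.6, 39.2 and 27.4 CPM, against 51.6, 62.7 and 55.2 CPM in WT cells. It fell there (log2 fold change -0.69, SE 0.12, adjusted p = 0.000261), with KO replicate 3 the lowest library. The effects differed by 0.67 for SOX4 (SE 0.13, adjusted p = 0.000185) and by 0.98 for HES6 (SE 0.20, adjusted p = 0.000764).

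**Figure D3:**
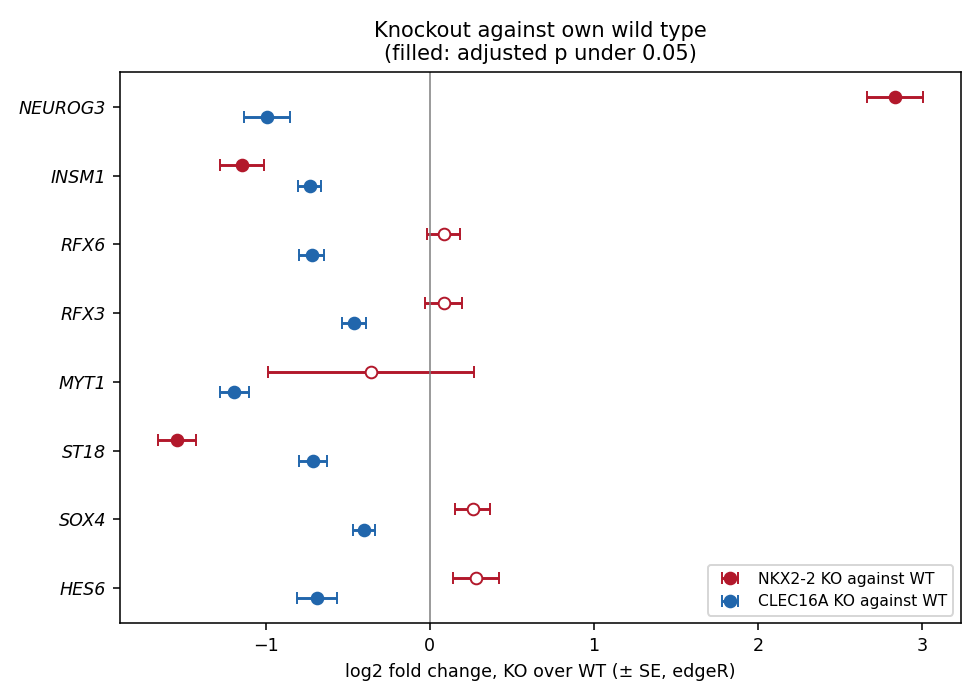
Log2 fold change of each gene, KO over its own WT (± SE, edgeR; filled points have an adjusted p under 0.05), NKX2-2 KO drawn above CLEC16A KO. NEUROG3 stands at 2.83 in NKX2-2 KO cells, while all 8 genes lie between -1.19 and -0.40 in CLEC16A KO cells.

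Over the 8 genes the effect in NKX2-2 KO cells was above that in CLEC16A KO cells for 5 (NEUROG3, RFX6, RFX3, SOX4 and HES6), below it for INSM1 and ST18, and not called for MYT1. Of all genes tested 17.8% were called above and 20.4% below, and under upper-quartile scaling 4703 were above and 3517 below, against 3648 and 4183 with TMM.

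Levels can be set side by side between genes only per length, in TPM and within an experiment. INSM1 had the highest mean TPM of the 8 genes in every group, with 109 TPM in NKX2-2 KO cells and 238 TPM in their WT, and 337 TPM in CLEC16A KO cells and 617 TPM in theirs. In NKX2-2 KO cells the order was INSM1, RFX6 (56.5 TPM), SOX4 (51.5), HES6 (38.1), NEUROG3 (22.7), RFX3 (4.11), ST18 (3.64) and MYT1 (0.792). There RFX6 and SOX4 overlapped, as did RFX3 and ST18. In their WT the order was INSM1, RFX6 (53.1 TPM), SOX4 (43.4), HES6 (30.9), ST18 (12.7), RFX3 (4.04), NEUROG3 (3.18) and MYT1 (2.37), with overlaps among the last 3 neighbours. NEUROG3 therefore stood above ST18 and RFX3 in NKX2-2 KO cells and below ST18 in their WT. In CLEC16A KO cells the order was INSM1, SOX4 (99.7 TPM), RFX6 (81.8), HES6 (45.0), ST18 (21.7), RFX3 (11.5), NEUROG3 (9.45) and MYT1 (7.71), and NEUROG3 and MYT1 overlapped. In their WT RFX6 and SOX4 were level at 146 TPM each, followed by HES6 (81.4), ST18 (29.4), NEUROG3 (20.4), MYT1 (19.2) and RFX3 (17.7). The TPM scale is covered to 41.4% to 47.2% by the rows of the NKX2-2 experiment and to 99.7% to 99.8% by those of the CLEC16A experiment, so TPM values are not compared between experiments.

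Factors that act before NEUROG3 in pancreatic progenitors were mostly lower in NKX2-2 KO cells and mostly higher in CLEC16A KO cells. Of 15 tested, 0 were higher and 9 lower in NKX2-2 KO cells (median log2 fold change -0.65). In CLEC16A KO cells 9 were higher and 4 lower (median 0.41). Shares of all genes tested, for this and the later lists, are 16.6% higher and 16.8% lower in NKX2-2 KO cells. They are 23.7% and 21.3% in CLEC16A KO cells. The 9 lower genes in NKX2-2 KO cells became 4 in limma on log2(TPM + 1) with no filter, which called 3247 genes in all. The interaction test called 12 of the 15, against 38.2% of all genes tested. The effect in NKX2-2 KO cells was lower for 11 and higher for 1, and the 11 became 6 in that limma fit. SOX9, a keeper of the progenitor state, averaged 51.6 ± 13.8 CPM in NKX2-2 KO cells and 93.4 ± 16.4 CPM in WT cells, and 204 ± 10.7 CPM in CLEC16A KO cells and 120.2 ± 3.19 CPM in WT cells. HNF4A, a hepatic and gut endoderm factor, averaged 71.0 ± 12.6 CPM in NKX2-2 KO cells and 162 ± 24.0 CPM in WT cells, and 328 ± 17.2 CPM in CLEC16A KO cells and 150.0 ± 2.25 CPM in WT cells. PDX1 and FOXA2, which are shared by progenitors and islet cells, fell in both knockouts. PDX1 changed by -1.20 and FOXA2 by -1.05 in NKX2-2 KO cells, and they changed by -0.50 and -0.63 in CLEC16A KO cells (log2 fold changes).

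HES1, the Notch effector that represses NEUROG3, had 45.0, 46.9 and 46.4 CPM in NKX2-2 KO cells, against 51.8, 55.4 and 58.3 CPM in WT cells. The KO libraries were all lower, but the log2 fold change of -0.26 (SE 0.10) had an adjusted p of 0.0723. In the CLEC16A experiment HES1 had 51.4, 51.2 and 50.2 CPM in KO cells, against 50.2, 51.2 and 49.3 CPM in WT cells (log2 fold change 0.02, interval -0.13 to 0.17). Of 26 Notch pathway genes tested in NKX2-2 KO cells 5 were higher and 8 lower. Of 27 tested in CLEC16A KO cells 7 were higher and 7 lower, near the 23.7% and 21.3% of all genes tested. DLL4, a Notch ligand, fell most clearly in NKX2-2 KO cells, with 14.4 ± 2.97 CPM, against 90.1 ± 6.26 CPM in WT cells (log2 fold change -2.65, SE 0.15). The receptor NOTCH1 rose there by 0.77. In CLEC16A KO cells NOTCH3 and the ligands DLL3 and DLK1 fell, by 1.71, 1.35 and 1.07 on the log2 scale, and the ligand JAG1 rose by 0.94. DLL1, HES5 and NOTCH4 were listed at 0 counts in all libraries of the NKX2-2 tables, although their TPM there was above 0 on average, and were not tested there. These Notch counts depended on settings and single libraries in NKX2-2 KO cells: upper-quartile scaling gave 6 higher and 3 lower. Leaving out KO replicate 2 or WT replicate 1 gave 2 higher, and leaving out WT replicate 2 or WT replicate 3 gave 3. The lower genes then numbered 3 without KO replicate 2, 2 without WT replicate 2, and 4 without KO replicate 3, WT replicate 1 or WT replicate 3.

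The bHLH partners of NEUROG3 and their inhibitors split. TCF4, an E protein that pairs with bHLH factors, averaged 18.2 ± 0.707 CPM in NKX2-2 KO cells and 6.32 ± 1.48 CPM in WT cells, and 4.34 ± 0.718 CPM in CLEC16A KO cells and 11.6 ± 0.732 CPM in WT cells. ID4, of the ID family that blocks E proteins, likewise rose in NKX2-2 KO cells (log2 fold change 0.85) and fell in CLEC16A KO cells (log2 fold change -1.52). NEUROD4 was nearly lost from NKX2-2 KO cells, with 0.781 ± 0.348 CPM, against 19.7 ± 0.948 CPM in WT cells (log2 fold change -4.67, SE 0.23, adjusted p = 1.97e-08). It averaged 15.3 ± 1.94 CPM in CLEC16A KO cells and 18.1 ± 1.11 CPM in WT cells (adjusted p = 0.0984). Of 11 genes tested in this list, 4 were higher and 2 lower in NKX2-2 KO cells, and 4 were higher and 5 lower in CLEC16A KO cells.

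Lineage factors downstream of NEUROG3 mostly fell in both knockouts. Of 18 tested, 4 rose and 11 fell in NKX2-2 KO cells (median log2 fold change -1.003), and 1 rose and 17 fell in CLEC16A KO cells (median -0.91). MNX1, a homeodomain factor of beta cells, averaged 42.5 ± 0.697 CPM in NKX2-2 KO cells and 238 ± 14.9 CPM in WT cells. LMX1A and FEV, factors of serotonin-producing cells, fell there, with log2 fold changes of -2.70 and -2.46, and IRX1 fell by 3.99 on the log2 scale. MAFA, a factor of mature beta cells, rose in NKX2-2 KO cells to 12.7 ± 0.266 CPM, against 4.09 ± 0.438 CPM in WT cells, and fell in CLEC16A KO cells to 0.902 ± 0.0657 CPM, against 8.13 ± 0.337 CPM in WT cells. PAX4, a factor early in the beta and delta lineage, fell in NKX2-2 KO cells (log2 fold change -0.63) and in CLEC16A KO cells (log2 fold change -1.22).

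A list of 13 genes tied to RFX6 and RFX3, most of them of beta cells and with GIP of gut endocrine cells among them, was counted next. Of these 13, 0 rose and 9 fell in NKX2-2 KO cells (median log2 fold change -1.36), and 1 rose and 12 fell in CLEC16A KO cells (median -1.02). The receptor gene GPR119 averaged 0.336 ± 0.0318 CPM in NKX2-2 KO cells and 26.0 ± 1.44 CPM in WT cells. GIP, an incretin hormone of gut endocrine cells, averaged 0.297 ± 0.276 CPM in NKX2-2 KO cells and 25.1 ± 3.40 CPM in WT cells. KCNJ11 and ABCC8, subunits of the ATP-sensitive potassium channel, fell in both knockouts. KCNJ11 changed by -1.36 and ABCC8 by -1.05 in NKX2-2 KO cells, and they changed by -1.09 and -1.25 in CLEC16A KO cells (log2 fold changes). INS fell to 248 ± 30.7 CPM in NKX2-2 KO cells, against 647 ± 157 CPM in WT cells, and to 183 ± 14.4 CPM in CLEC16A KO cells, against 624 ± 71.9 CPM in WT cells. INS counts were few for its TPM: 0.0809 CPM per rescaled TPM in the NKX2-2 experiment and 0.0343 in the CLEC16A experiment. For SST these values were 0.367 and 0.314, and the cause was not tested.

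Cilium genes, the other known program of RFX3, were mostly lower in CLEC16A KO cells and more often higher than lower in NKX2-2 KO cells. Of 29 tested, 9 were higher and 2 lower in NKX2-2 KO cells (median log2 fold change 0.34), and 0 were higher and 20 lower in CLEC16A KO cells (median -0.44). The 9 genes called higher in NKX2-2 KO cells became 4 without KO replicate 2 or WT replicate 2, 3 without KO replicate 3 and 2 without WT replicate 1, and 15 under upper-quartile scaling. The interaction test called 19 of these 29 genes, against 38.2% of all genes tested, all with the effect higher in NKX2-2 KO cells. That count was 17 to 22 under RLE or upper-quartile scaling and in limma on TPM. TCTN1, of the ciliary transition zone, averaged 67.9 ± 2.49 CPM in NKX2-2 KO cells and 51.2 ± 2.90 CPM in WT cells, and 45.4 ± 1.30 CPM in CLEC16A KO cells and 61.4 ± 1.95 CPM in WT cells. IFT57, of intraflagellar transport, changed by 0.35 in NKX2-2 KO cells and by -0.71 in CLEC16A KO cells. FOXJ1, a factor of motile cilia, fell by 0.36 in NKX2-2 KO cells and by 1.10 in CLEC16A KO cells on the log2 scale. HYDIN, of the motile cilium axoneme, fell by 1.10 in NKX2-2 KO cells and by 0.84 in CLEC16A KO cells.

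Of 18 genes around INSM1 and cell cycle exit, 1 was higher and 4 lower in NKX2-2 KO cells. In CLEC16A KO cells 7 were higher and 5 lower, with 3 lower without KO replicate 1, KO replicate 3 or WT replicate 2. Of all genes tested, 33.4% were called in NKX2-2 KO cells and 45.0% in CLEC16A KO cells. The 18 genes were not called more often than that in NKX2-2 KO cells. PAK3, a kinase tied to cell cycle exit of endocrine progenitors in mouse, fell by 2.68 in NKX2-2 KO cells and by 0.99 in CLEC16A KO cells on the log2 scale. CCND1, the cyclin that INSM1 represses, fell to 63.5 ± 7.38 CPM in NKX2-2 KO cells, against 135 ± 16.2 CPM in WT cells, and rose to 327 ± 14.4 CPM in CLEC16A KO cells, against 156 ± 2.12 CPM in WT cells. CDKN1A, a cell cycle inhibitor, rose to 206 ± 3.77 CPM in CLEC16A KO cells, against 48.0 ± 1.49 CPM in WT cells. Among paralogs of the members, 1 of 9 tested was higher and 0 lower in NKX2-2 KO cells, and 0 of 11 were higher and 4 lower in CLEC16A KO cells. In neither knockout were the paralogs called more often than all genes tested. SOX11, the close relative of SOX4, rose by 0.43 in NKX2-2 KO cells and fell by 0.61 in CLEC16A KO cells on the log2 scale.

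**Figure D4:**
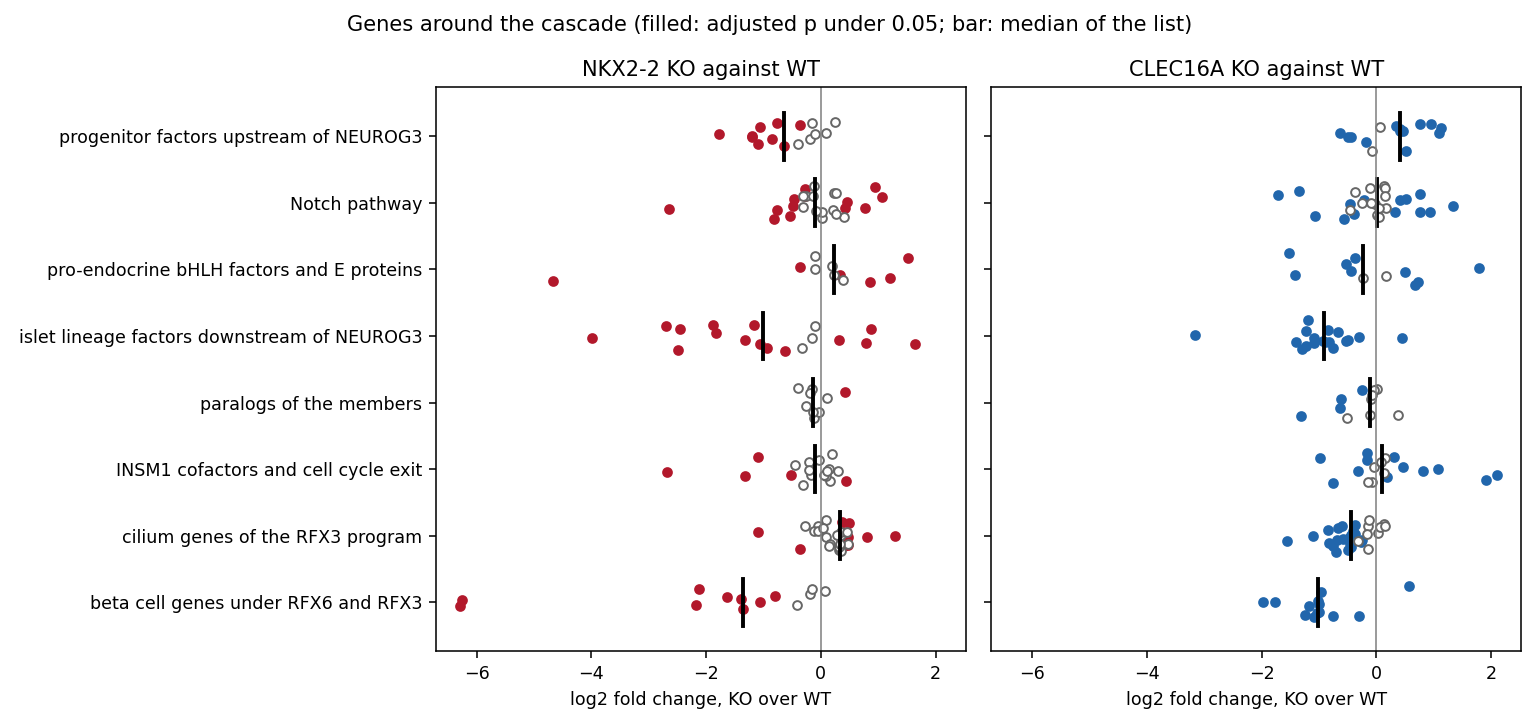
Log2 fold change, KO over WT, of the genes of 8 lists around the cascade, NKX2-2 KO on the left and CLEC16A KO on the right; each point is a gene, filled where the adjusted p is under 0.05, and bars are list medians. The median of upstream progenitor factors is -0.65 on the left and 0.41 on the right, and that of cilium genes is 0.34 on the left and -0.44 on the right.

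The genes whose pattern was nearest to that of NEUROG3 over the 12 libraries were ranked by root mean square distance of log2(CPM + 1) from the mean of the own WT. Among 13198 genes compared, the median distance was 1.46, and the nearest were PDGFRA (0.307), CHODL (0.314), UNC5A (0.357), BTBD17 (0.359) and SST (0.37). BTBD17 averaged 2481 ± 196 CPM in NKX2-2 KO cells and 355 ± 53.6 CPM in WT cells, and 72.0 ± 12.8 CPM in CLEC16A KO cells and 200.2 ± 15.7 CPM in WT cells. SST, the hormone somatostatin of delta cells, averaged 112 ± 8.41 CPM in NKX2-2 KO cells and 24.1 ± 5.86 CPM in WT cells, and 57.4 ± 3.24 CPM in CLEC16A KO cells and 94.9 ± 7.63 CPM in WT cells. PDGFRA, a receptor for platelet-derived growth factor and one of the 8 mesenchyme markers counted below, averaged 41.1 ± 3.18 CPM in NKX2-2 KO cells and 4.15 ± 0.398 CPM in WT cells, and 1.10 ± 0.341 CPM in CLEC16A KO cells and 4.03 ± 0.807 CPM in WT cells. The log2 fold changes of PDGFRA were 3.31 in NKX2-2 KO cells and -1.88 in CLEC16A KO cells, against 2.83 and -0.99 for NEUROG3. PDGFRA reached the mean of 5 CPM that the ranking required only in the NKX2-2 KO group, where it was high. Adding 1 CPM before the logarithm shrinks changes at levels as low as those of PDGFRA in the CLEC16A experiment. The likeness is a description of these libraries: all genes share the same 4 groups, and the depth differed between the experiments.

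Markers of other cell types moved beside NEUROG3. All 8 mesenchyme markers were higher in NKX2-2 KO cells (summed level 5978 to 6609 CPM in KO libraries, 2384 to 2645 CPM in WT libraries), and 6 of 8 were lower in CLEC16A KO cells (200.2 to 235 CPM in KO libraries, 301 to 345 CPM in WT libraries). Of 9 neuron markers, 5 were higher and 1 lower in NKX2-2 KO cells (955 to 1061 CPM in KO libraries, 695 to 756 CPM in WT libraries), and 0 were higher and 8 lower in CLEC16A KO cells (306 to 347 CPM in KO libraries, 681 to 754 CPM in WT libraries). Of 4 endothelial markers 3 were higher and 1 lower in NKX2-2 KO cells (63.7 to 72.6 CPM in KO libraries, 21.1 to 26.6 CPM in WT libraries), and 1 was higher and 2 lower in CLEC16A KO cells (10.4 to 13.4 CPM in KO libraries, 20.3 to 22.1 CPM in WT libraries). Liver markers summed to 9942 to 12274 CPM in NKX2-2 KO libraries and 9818 to 11417 CPM in WT libraries (2 of 7 higher, 2 lower), and to 16265 to 17919 CPM in CLEC16A KO libraries and 6354 to 6655 CPM in WT libraries (5 of 7 higher). Intestine markers had 4 of 5 lower in NKX2-2 KO cells (1684 to 1805 CPM in KO libraries, 2811 to 2973 CPM in WT libraries) and 5 of 5 higher in CLEC16A KO cells (5020.2 to 5824 CPM in KO libraries, 1085 to 1180.0 CPM in WT libraries). None of these markers was at 0 in all libraries of an experiment, and their part in the members' changes was not tested.

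Among endocrine markers, gut endocrine genes fell in both knockouts, 6 of 6 in each, to 165 to 196 CPM in NKX2-2 KO libraries, against 1061 to 1130 CPM in WT libraries, and to 888 to 961 CPM in CLEC16A KO libraries, against 1508 to 1563 CPM in WT libraries. Delta cell markers had 3 of 4 higher and 1 lower in NKX2-2 KO cells, and 1 of 4 higher and 3 lower in CLEC16A KO cells. Their summed level was lower in both knockouts, although their median log2 fold change in NKX2-2 KO cells was 1.54. PCSK1 and LEPR weigh most in the sum of the NKX2-2 experiment, with 227 and 143 CPM on average over its libraries. SST had 67.7 CPM and HHEX 3.58 CPM. The sum was 396 to 398 CPM in NKX2-2 KO libraries, against 464 to 514 CPM in WT libraries. In CLEC16A KO libraries it was 380 to 411 CPM, against 506 to 519 CPM in WT libraries. Of the beta cell markers tested, 1 of 4 was higher and 3 lower in NKX2-2 KO cells, and 0 of 6 were higher and 5 lower in CLEC16A KO cells. The beta cell marker G6PC2 had almost no counts in the NKX2-2 experiment, 0.0171 CPM on average against 1.11 rescaled TPM. Its CPM per rescaled TPM was 80.9 times lower there than in the CLEC16A experiment. Alpha cell markers had 1 of 5 higher and 3 lower in NKX2-2 KO cells, and 0 of 5 higher and 4 lower in CLEC16A KO cells. General endocrine markers had 0 of 6 higher and 4 lower in NKX2-2 KO cells, where counts of CHGA and SCG5 fell short of their TPM by 20.8 and 15.8 times relative to the CLEC16A tables, and 1 of 6 higher and 5 lower in CLEC16A KO cells. Duct markers were higher in CLEC16A KO cells, 6 of 6 (848 to 870.2 CPM in KO libraries, 622 to 658 CPM in WT libraries), and split 2 higher and 2 lower in NKX2-2 KO cells (674 to 737 CPM in KO libraries, 709 to 809 CPM in WT libraries). Of 5 proliferation genes, 1 was higher in NKX2-2 KO cells and 4 were higher in CLEC16A KO cells (1 in limma on TPM).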

How the data were processed

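RNA had been sequenced from 12 libraries of MEL1-derived islet-like cells, 3 in each of 4 groups, at day 8. Reads were processed with fastp 0.22.0, HISAT2 2.2.1 and StringTie 2.1.7 on hg38, per the submitters' processing notes. The authors deposited raw counts per gene and TPM values per gene. Which program counted the reads, with which annotation release and strand setting, is not given in the sources used here; genes that overlap the members had at most 20 counts summed over a group. Another 45 rows, Y copies of pseudoautosomal genes, were dropped, and all columns belonged to a sample. Groups and replicate numbers came from the titles.

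Counts were tested within each experiment with edgeR 4.0.16 in R 4.3.3 (quasi-likelihood F test, robust, TMM, filterByExpr), with Benjamini-Hochberg adjustment over all genes and a threshold of 0.05. One fit of 12 libraries tested the interaction, the difference of both knockout effects. Each standard error is the size of the log2 fold change divided by the square root of F, and 95% intervals use the fit's degrees of freedom. CPM used TMM-scaled library sizes. Ratios were tested by exact permutation, two-sided. The alternatives tried were upper-quartile and RLE scaling, DESeq2 1.42.0, other filters, a replicate block, one fit of 12 libraries, limma 3.58.1 on log2(TPM + 1) for genes that reached 0.5 TPM in at least 3 libraries, and on log2(TPM + 0.1), fits without mitochondrial DNA genes, without both libraries numbered 3 and without each library. Limma on TPM rescaled to one total was chosen after seeing the data.

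The members and lists were chosen with earlier results of these data known. At most 4 genes per list and comparison are named, in order of p, and NKX2-2, CLEC16A, NEUROD1, HES1 and the 5 genes nearest to NEUROG3 (of at least 5 CPM in a group) always. Some genes are named a second time for the other knockout. One gene that this rule would name is not reported here. Sequences are from RefSeq (GRCh38.p14), which matched 5 of the 8 members, and gene coordinates from GENCODE 29 (GRCh38). Mitochondrial DNA genes took 9.13% to 10.2% of counts in NKX2-2 KO libraries and 7.05% to 8.02% in their WT, and 0 in the CLEC16A tables.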

Additional observations from a re-analysis of the deposited data

Results flagged for a closer look

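For 7 of the 8 genes, the test of the difference between both knockout effects passed its threshold (adjusted p under 0.05, edgeR, 12 libraries), where 38.2% of all genes did. The effect in NKX2-2 KO cells was above that in CLEC16A KO cells by 3.83 for NEUROG3, 0.98 for HES6, 0.81 for RFX6, 0.67 for SOX4 and 0.56 for RFX3 (log2). NEUROG3 was called in both knockouts and in opposite directions. RFX6, RFX3, SOX4 and HES6 were called lower in CLEC16A KO cells and not called in NKX2-2 KO cells. The effect in NKX2-2 KO cells was below that in CLEC16A KO cells by a difference of -0.82 for ST18 and -0.40 for INSM1, both of which fell in each knockout. The difference was called in all 24 alternative settings for ST18 but in only 6 of 24 for INSM1.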

How the results depend on the processing

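NEUROG3 kept its direction and its call in all 19 alternatives of each knockout and all 24 of the difference, with log2 values of 2.51 to 3.02 in NKX2-2 KO cells, -1.12 to -0.83 in CLEC16A KO cells and 3.56 to 4.04 for the difference. INSM1 kept its call in each knockout, but its difference lost the call in 18 of 24 alternatives (adjusted p up to 0.426). Genes called numbered 4345 to 6332 (5824 as reported) between NKX2-2 KO and WT when each library was left out in turn, 7931 to 8456 (8985) between CLEC16A KO and WT, and 6996 to 8147 (7831) for the difference. Limma on log2(TPM + 1) with no filter called 3247 genes between NKX2-2 KO and WT. In CLEC16A KO cells limma on log2(TPM + 1) called 3135 higher and 4752 lower, against 4732 and 4253 in counts, with the median of all genes at -0.11. For the difference it called 4250 above and 3257 below (median 0.12), and the median was 0.16 under upper-quartile scaling. Members called in NKX2-2 KO cells numbered 3 to 4 without each library and 8 in every such fit of CLEC16A KO cells.

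The rule used to take replicate numbers as pairs, a correlation over 0.1 for every pair, was not met: same-numbered libraries correlated in their deviations by 0.18, 0.0617 and 0.465 in the NKX2-2 experiment and by 0.00924, 0.00659 and -0.0464 in the CLEC16A experiment. In the NKX2-2 experiment both libraries numbered 3 deviated together (0.465). KO replicate 3 correlated by -0.302 and -0.299 with WT replicates 1 and 2, and WT replicate 3 by -0.34 and -0.184 with KO replicates 1 and 2. Deviations were taken from the mean of the own group and cancel within it. The correlations of a library with the other group therefore cannot all be positive, and these negative values add no separate evidence. KO replicate 1 correlated best with WT replicate 2 (0.259) and KO replicate 2 with WT replicate 1 (0.175). With the replicate number as a block, 8037 genes were called between NKX2-2 KO and WT, 8763 between CLEC16A KO and WT and 8889 for the difference, and 5 members were called in NKX2-2 KO cells, SOX4 (adjusted p = 0.00419) and HES6 (adjusted p = 0.0104) among them. SOX4 was also called under upper-quartile scaling (adjusted p = 0.0344) and in one fit of 12 libraries (adjusted p = 0.0186), HES6 without both libraries numbered 3 (adjusted p = 0.0128). RFX3 in NKX2-2 KO cells turned to -0.056 in limma on rescaled TPM. MYT1 in NKX2-2 KO cells had -1.63 without KO replicate 2 and turned to 0.12 without both libraries numbered 3 and to 0.15 without KO replicate 3. The difference for MYT1 turned to -0.44 without NKX2-2 KO replicate 2, to -0.18 in limma on log2(TPM + 0.1) and to -0.036 in limma on rescaled TPM, and was called at 1.38 without NKX2-2 KO replicate 3 and at 1.27 without both libraries numbered 3. The cause of these turns was not tested. The fewest counts lie behind MYT1 in the NKX2-2 tables, 28 in KO libraries and 38 in WT libraries.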

Other observations

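In the NKX2-2 WT group replicate 3 was the lowest library for SOX4 and the highest for HES6: SOX4 had 247 CPM there, against 297 and 301 CPM in the other WT libraries, and HES6 had 72.5 CPM, against 51.3 and 56.5 CPM. For SOX4 replicate 3 was also the lowest library in the NKX2-2 KO and CLEC16A KO groups, but the highest in the CLEC16A WT group. For HES6 it was the lowest in the CLEC16A KO group. In a group of 3 libraries all but the middle one are extremes, so this is only a description. DLL1 had no counts in the NKX2-2 tables and was listed at a mean of 3.58 TPM, rescaled to one total, over those libraries.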
